A study of Caenorhabditis elegans with 3 samples.

Results

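The kynurenine pathway is the main route by which animals break down tryptophan. In Caenorhabditis elegans it is represented here by 7 genes, chosen by their sequence names from the 45343 features of the deposited tables: C28H8.11 (tdo-2), D2024.2 (afmd-1), R07B7.5 (kmo-1), R07B7.4 (kmo-2), C15H9.7 (kynu-1), K06A4.5 (haao-1) and F28H6.3 (nkat-1). They were taken by name for their place in the pathway, with no threshold on a value, though earlier results of these data were known. All 7 were found, and the current names were taken from RefSeq, since the tables themselves name 2 of them, haao-1 and nkat-1.

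Messenger RNA was sequenced from whole animals synchronised at the L4 larval stage, the last before adulthood. The strains were ZG24, which carries the ahr-1(ia03) allele, CZ2485, which carries the ahr-1(ju145) allele, and the wild type N2. The gene ahr-1 encodes the worm aryl hydrocarbon receptor, a ligand-regulated transcription factor in vertebrates. Each strain gave 1 library from a whole population, so the values below carry no replicate error and no strain difference was tested. The labels do not say what either allele does to the protein or how else the strains differ.

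The first enzyme, tryptophan 2,3-dioxygenase (tdo-2), opens the indole ring of tryptophan, and arylformamidase (afmd-1) releases kynurenine. Kynurenine monooxygenase (kmo-1, kmo-2) hydroxylates it, kynureninase (kynu-1) cleaves off alanine to leave 3-hydroxyanthranilate, and the dioxygenase haao-1 opens that ring on the way to quinolinate and NAD. On a side branch, kynurenine aminotransferase (nkat-1) makes kynurenic acid. Kynurenine and kynurenic acid are ligands of the receptor in vertebrates. In C. elegans the pathway also supplies the precursor of rhodoquinone, an electron carrier used without oxygen, and the fluorescent anthranilate of the gut granules.

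The genes lie on 4 chromosomes and none overlaps another feature of the tables. In the deposited coordinates (genome build not given in the sources used here), tdo-2 spans chromosome III from 5917582 to 5920041, afmd-1 chromosome IV from 7244212 to 7245492, and haao-1 chromosome V from 9505664 to 9507090. On chromosome V, kmo-2 runs from 12065940 to 12067938 and kmo-1 from 12068698 to 12070500, with 759 bases between them and both on the minus strand. On the X chromosome, kynu-1 lies from 6106881 to 6109310 and nkat-1 from 14138030 to 14140001. All 7 are annotated as protein-coding, and Ensembl gives their longest transcripts between 5 and 9 exons. For kmo-2 the longest Ensembl transcript has 2090 exon bases, more than its deposited span of 1999. The deposited gene model of kmo-2 therefore differs from that of Ensembl, and the 759 bases hold for the deposited coordinates. The monooxygenase genes are adjacent and named for the same enzyme. Their sequences were not compared, and whether reads were split between them was not tested.

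FPKM, the number of fragments relative to the length of a feature and to all mapped fragments of the library, is scaled to length, so levels can be set side by side between genes. The pathway was expressed very unevenly in all 3 libraries. Together tdo-2, kynu-1 and haao-1 made up 89.4% of the summed FPKM of the 7 genes in ia03, 90.3% in ju145 and 88.8% in wild type. The order from high to low was tdo-2, kynu-1, haao-1, kmo-1, then afmd-1 and kmo-2 at nearly the same level, and nkat-1 last. Only afmd-1 and kmo-2 changed places, with kmo-2 the higher of the pair in ia03. Without replicates it cannot be said which neighbours in this order differ beyond their spread.

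At the entry of the pathway, tdo-2 had an FPKM of 189.6 in ia03, 157 in ju145 and 179 in wild type. That placed it above 94.5% of the features detected in ia03, 93.5% of those in ju145 and 93.9% of those in wild type. The next enzyme gene, afmd-1, had an FPKM of 6.29 in ia03, 5.24 in ju145 and 10.2 in wild type. Both mutant values lay well below the wild type value, and the formamidase transcript was more than an order of magnitude less abundant than that of the dioxygenase before it.

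The monooxygenase genes differed from each other. For kmo-1 the FPKM was 28 in ia03, 19.8 in ju145 and 22.1 in wild type, so that wild type lay between the mutants. For kmo-2 it was 6.64 in ia03, 5.11 in ju145 and 9.64 in wild type, and both mutants lay below wild type. Downstream, kynu-1 had an FPKM of 104.6 in ia03, 85.2 in ju145 and 104.7 in wild type. The ia03 and wild type values for kynureninase were almost equal and the ju145 value was the lowest. The last gene of the main route, haao-1, had 55.3 FPKM in ia03, 47.1 in ju145 and 60.9 in wild type.

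On the side branch, nkat-1 was the least abundant, with an FPKM of 0.688 in ia03, 1.12 in ju145 and 1.39 in wild type. It was above only 17.0% of detected features in ia03, 22.7% in ju145 and 24.0% in wild type. The precision of such a low value depends on the number of fragments behind it. Low FPKM values multiplied by gene length clustered near evenly spaced steps, whose size was chosen for the best fit to these values. The fit score was 0.47 in ia03, 0.51 in ju145 and 0.51 in wild type, where 1 would mean exact steps. If 1 step is 1 fragment, nkat-1 rested on about 50 fragments in ia03, 71 in ju145 and 83 in wild type. Exact Poisson 95% intervals, which cover counting error only, ran from 37.1 to 65.9 fragments in ia03, 55.5 to 89.6 in ju145 and 66.1 to 103 in wild type. By the same reading afmd-1 rested on about 232 fragments in ia03 (203 to 264), 167 in ju145 (143 to 194) and 304 in wild type (271 to 340). These counts are rough, because the lengths come from Ensembl and may differ from those used for the FPKM.

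**Figure D1:**
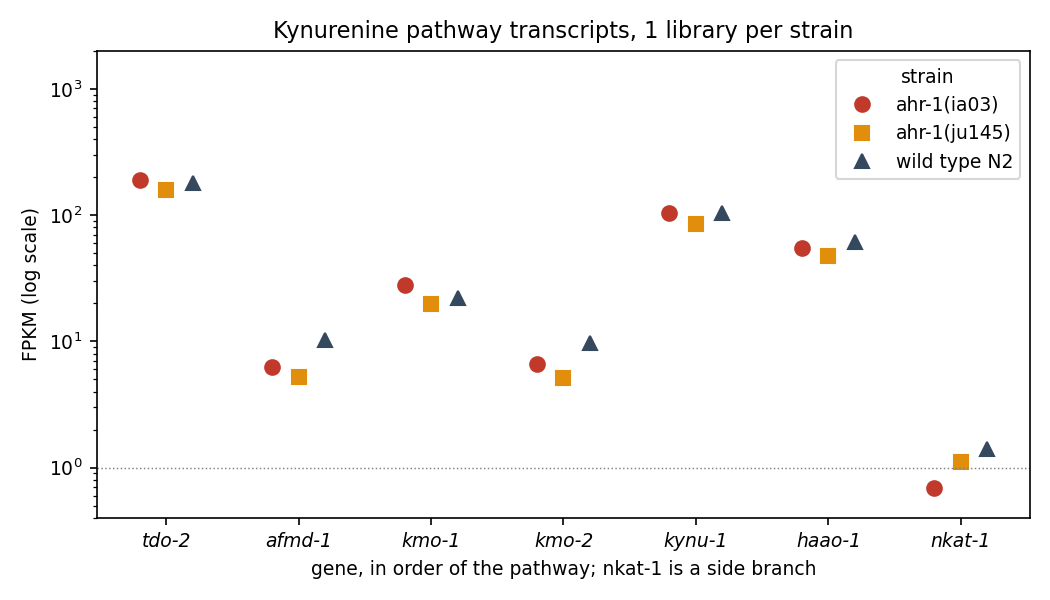
FPKM on a log axis for the 7 genes of the kynurenine pathway, in pathway order, with 1 point per library: circles for ahr-1(ia03), squares for ahr-1(ju145) and triangles for wild type N2; the dotted line marks the floor of FPKM 1. Levels run from 0.688 for nkat-1 in ia03 to 189.6 for tdo-2 in ia03, and afmd-1 and kmo-2 are the genes of the main route whose mutant points both sit clearly below the triangle.

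The libraries differed in ways that bear on every gene. In FPKM, 1 fragment was worth 0.81 times as much in ia03 as in wild type and 0.938 times as much in ju145, so by this reading both mutant libraries were the deeper ones. The median log2 ratio of FPKM + 1 over all measured genes was -0.02 for ia03 over wild type but -0.18 for ju145 over wild type. The targeted gene ahr-1 had an FPKM of 0.699 in ia03, 0.569 in ju145 and 0.664 in wild type, and a value for the whole gene checks no label here. In whole animals, fewer cells of a type and less RNA per cell cannot be told apart. No marker of intestine, hypodermis, body muscle, neurons, germline, sperm or yolk from the 45 listed was at 0 in any library. The 6 sperm markers summed to an FPKM of 918 in ia03, 1254 in ju145 and 1704 in wild type, and the 6 yolk genes to 4183, 5751 and 8211 in the same libraries. The 8 intestinal markers summed to 6107 in ia03, 7140 in ju145 and 6184 in wild type, and the 8 hypodermal markers to 2433, 2962 and 2808. Such sums weigh the most abundant genes. The higher intestinal sum of ju145 came mainly from act-5 (1966 in ju145, 1335 in wild type, failed test status) and asp-1 (2314 and 1607). In each mutant, 4 of the 6 intestinal markers with a measured ratio were below wild type. Of all genes measured, 52.5% were below wild type in ia03 and 71.7% in ju145. In ia03, 6 of 7 hypodermal markers with a measured ratio were above wild type, as were 3 of 7 in ju145. Measured from the median of all genes, 1 of these 7 was lower in each mutant. By that measure 3 of the 6 intestinal markers were lower in ia03 and 2 of 6 in ju145. The hypodermal marker below wild type in ia03 was col-19, a cuticle collagen gene of adults. Its FPKM was 941 in ia03, 1572 in ju145 and 1806 in wild type. Left out of these counts for its failed test status, dpy-7 had 161 in ia03, 111 in ju145 and 54.5 in wild type. As the most abundant of the 8 hypodermal markers in each library, col-19 weighs heavily on their sums. The part of stage, gonad or tissue share in the values of the pathway was not tested.

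The first comparison asked how the pathway stood in ia03 animals relative to wild type. No gene of the 7 differed by 2-fold on the log2(FPKM + 1) scale, on which the pseudocount of 1 shrinks ratios at low FPKM. Over all 14783 genes measured, 2.52% passed 2-fold in the higher direction and 4.26% in the lower. The median of the 7 log2 ratios was -0.14, with 5 genes below wild type and 2 above, beside 52.5% of all genes below. Under a limit of 1.5-fold, 1 gene (afmd-1) was lower, as were 13.2% of all genes.

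The lowest log2 ratios in ia03 belonged to afmd-1 at -0.61, nkat-1 at -0.50 and kmo-2 at -0.48. Among the 4410 genes whose mean FPKM was within 2-fold of that of afmd-1, 14.2% had a lower ratio, and for kmo-2 it was 19.2% of 4387. So both stood in the lower part of the genes of similar abundance, but not at its edge. At the other end, kmo-1 had a log2 ratio of 0.33, and 90.2% of 5134 genes of similar level had a lower one. The most abundant genes were close to wild type, with log2 ratios of 0.081 for tdo-2, -0.001 for kynu-1 and -0.14 for haao-1.

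Without the pseudocount, nkat-1 in ia03 was at 49.4% of its wild type FPKM, just past 2-fold. The authors' deposited table, which compares these 2 libraries, gave nkat-1 a p-value of 0.0466 and a q-value of 0.261. In that table the q-values for ia03 were 0.309 for afmd-1, 0.404 for kmo-2 and above both for the other 4 genes, so 0 of 7 were under 0.05. Of all features that the authors could test in ia03, 3.41% had a q-value under 0.05 and were lower, and 1.96% were higher.

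The second comparison set ju145 against wild type. All 7 genes were below wild type, as were 71.7% of all 14686 genes measured. Their median log2 ratio was -0.29, beside -0.18 for all genes. Measured from that overall median, 5 genes were lower and 2 (kmo-1 and nkat-1) higher, and the median of the 7 was -0.11. After rescaling by the median ratio, the 2 above wild type were instead tdo-2 and kmo-1. No gene reached 2-fold, a limit that 3.54% of all genes passed in the lower direction and 1.36% in the higher. At 1.5-fold, 2 genes (afmd-1 and kmo-2) were lower, as were 13.8% of all genes.

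Again afmd-1 and kmo-2 stood lowest in ju145. Their log2 ratios were -0.84 for afmd-1 and -0.80 for kmo-2, and relative to the median of all genes they were -0.65 and -0.62. In FPKM, afmd-1 was at 51.6% of wild type and kmo-2 at 53.0%. Of the genes of similar level, 7.60% had a lower ratio than afmd-1 and 8.93% a lower ratio than kmo-2. In the authors' deposited table the q-value for ju145 was 0.0361 for afmd-1 and 0.0237 for kmo-2, and those of the other 5 genes were all above 0.29. That makes 2 of 7 genes, both lower, while 7.63% of all features tested by the authors in ju145 were lower with a q-value under 0.05 and 0.895% were higher. The authors' own call of differential expression also required 2-fold, which neither gene met. Throughout this report, the authors' q-values compare 1 library with 1 library. They therefore hold no measured spread between populations of a strain.

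The other genes lay near the middle of the ju145 distribution. Relative to the median of all genes, the log2 ratio was -0.01 for tdo-2, 0.03 for kmo-1, 0.01 for nkat-1, -0.11 for kynu-1 and -0.18 for haao-1. None of these 5 stood apart from the general shift of that library. For tdo-2 and kmo-1 the side of wild type depended on the scaling. As deposited both were below wild type, and after rescaling by the median ratio their log2 ratios were 0.01 and 0.04. The pseudocount shrinks the ratio of nkat-1 far more than the median of all genes. After the same rescaling the log2 ratio of nkat-1 was -0.07.

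**Figure D2:**
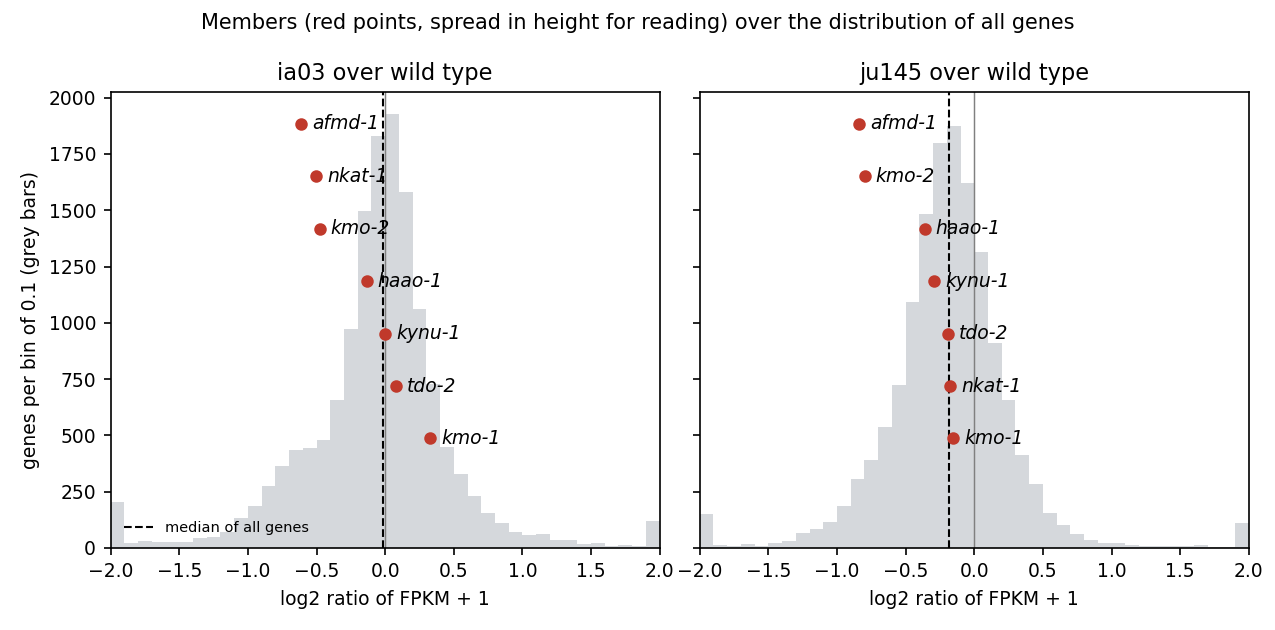
Grey bars count all measured genes by log2 ratio of FPKM + 1 in bins of 0.1, for ia03 over wild type on the left and ju145 over wild type on the right, with values beyond 2 in the end bins; the dashed line is the median of all genes, and red points mark the 7 pathway genes at heights that carry no value. In both panels afmd-1 is lowest, at -0.61 in ia03 and -0.84 in ju145, and kmo-1 is highest, at 0.33 in ia03 and -0.15 in ju145.

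The ratio of 2 genes within a library does not change when the whole library is rescaled, so it describes the balance of the pathway apart from the shift of ju145. Among tdo-2, kynu-1 and haao-1 this balance varied little. The FPKM of tdo-2 was 1.81 times that of kynu-1 in ia03, 1.84 times in ju145 and 1.71 times in wild type. For kynu-1 over haao-1 the ratios were 1.89 in ia03, 1.81 in ju145 and 1.72 in wild type. Over the 3 pairs of these genes, the largest ratio among the libraries was 1.08 to 1.16 times the smallest.

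Ratios that involve the other genes varied more. For tdo-2 over afmd-1 the ratio was 30.1 in ia03, 29.96 in ju145 and 17.6 in wild type. Between the adjacent monooxygenase genes, kmo-1 over kmo-2 was 4.22 in ia03, 3.87 in ju145 and 2.29 in wild type. Put as a share, kmo-2 gave 19.2% of the summed FPKM of the pair in ia03, 20.5% in ju145 and 30.4% in wild type. Over the 8 ratios of a higher gene (tdo-2, kynu-1, haao-1 or kmo-1) to afmd-1 or kmo-2, the largest among the libraries was 1.46 to 2.05 times the smallest. That these ratios were larger in both mutants follows from the lower folds of afmd-1 and kmo-2 already given, and both mutants were set against the same wild type library. The widest range of all 21 pairs was that of kmo-1 over nkat-1, at 40.7 in ia03, 17.7 in ju145 and 15.9 in wild type, and tdo-2 over nkat-1 was 275 in ia03, 141 in ju145 and 129 in wild type. These rest on the few fragments of nkat-1. Each of the 21 ratios was taken as the more abundant gene in wild type over the less abundant. Of them, 14 were larger in both mutants than in wild type, among them all 8 ratios of a higher gene to afmd-1 or kmo-2. The ratios share genes and the wild type library, so the 14 are not separate observations. No share for other gene pairs is given beside this count, and a shift in the balance of the whole pathway was not tested. The ratio of afmd-1 over kmo-2 was 0.948 in ia03, 1.03 in ju145 and 1.05 in wild type, a pair whose balance moved little.

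**Figure D3:**
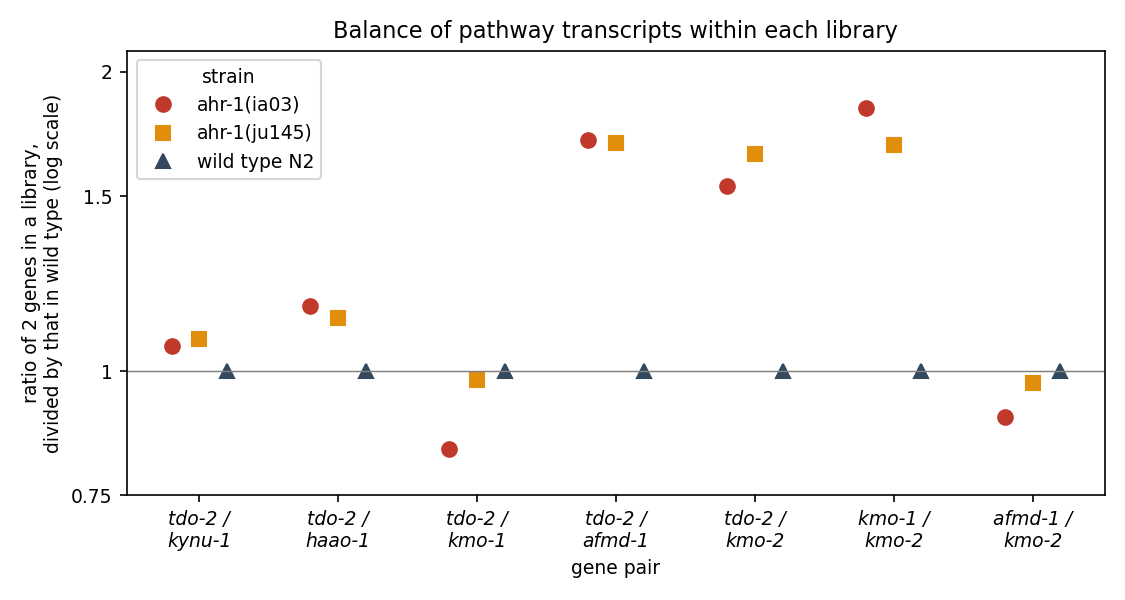
Ratio of the FPKM of 2 genes within a library, divided by the same ratio in wild type, on a log axis, for 7 pairs; circles stand for ahr-1(ia03), squares for ahr-1(ju145) and triangles for wild type N2, which is 1 by construction. The ratios of tdo-2 over afmd-1, tdo-2 over kmo-2 and kmo-1 over kmo-2 are higher in both mutants, while the mutant points for tdo-2 over kynu-1 sit near 1, from ratios of 1.81 in ia03, 1.84 in ju145 and 1.71 in wild type.

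The third comparison set the alleles against each other. In ia03, 6 of 7 genes were higher than in ju145 and 1 was lower, as were 30% of all 14384 genes, and the median log2 ratio of the 7 was 0.27 against 0.15 for all genes. None reached 2-fold, as 1.28% of all genes did in the higher direction and 1.38% in the lower. The largest log2 ratio was that of kmo-1 at 0.48, and 90.0% of 4925 genes of similar level had a lower one. The exception was nkat-1, with a log2 ratio of -0.33, where 14.4% of 1327 genes of similar level had a lower one. The 6 genes of the main route were higher in ia03 than in ju145, by 0.22 to 0.48 on the log2 scale. The lower value of nkat-1 rests on few fragments, about 50 in ia03 and 71 in ju145. It was not shared by the other side branch genes measured, described below, with log2 ratios of 0.22 for nkat-3 and 0.38 for acsd-1.

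A further 6 lists held genes that use the same substrate or products, chosen for their place in metabolism. They comprised 37 genes found in the tables, of which 34 could be measured in each comparison, and no gene of them differed by 2-fold in either mutant. Their median log2 ratio was 0.14 in ia03 and -0.09 in ju145, with 9 of 34 genes below wild type in ia03, where 52.5% of all genes were, and 24 of 34 in ju145, where 71.7% were. Measured from the median of all genes, the ju145 value was 0.10, and each of the 6 lists had a median above that of all genes, so that the sign of the ju145 medians below depends on the scaling.

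The list of further side branches had 2 measured genes, nkat-3 and acsd-1. The second aminotransferase gene, nkat-3, had an FPKM of 46.6 in ia03, 39.97 in ju145 and 36.7 in wild type, far above nkat-1 in each library. Its log2 ratio was 0.33 in ia03, close to that of kmo-1, and 0.12 in ju145. For acsd-1, named for the decarboxylase that diverts the product of haao-1 from quinolinate, it was 7.49 in ia03, 5.53 in ju145 and 6.91 in wild type. The tyrosine aminotransferase gene tatn-1 had 171.5 FPKM in ia03, 182 in ju145 and 179 in wild type, with a failed test status in both tables. Tryptophan is also used for protein and for serotonin. The tryptophanyl-tRNA synthetase gene wars-1 had 112 FPKM in ia03, 97.7 in ju145 and 109 in wild type. The serotonin synthesis gene tph-1, a tryptophan hydroxylase, was below FPKM 1 in all libraries, at 0.556 in ia03, 0.533 in ju145 and 0.388 in wild type.

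NAD synthesis from the end of the pathway and by salvage gave 7 measured genes, with a median log2 ratio of -0.08 for ia03 and of -0.09 for ju145. The gene umps-1, reported in C. elegans to act in NAD synthesis from quinolinate, had an FPKM of 64.2 in ia03, 63.98 in ju145 and 53.8 in wild type. The nicotinate phosphoribosyltransferase gene nprt-1, of the salvage route, had 23.75 FPKM in ia03, 23.9 in ju145 and 33.4 in wild type. It was lower in both mutants, which share the wild type library, and in the authors' deposited tables its q-value was 0.0329 for ia03 and 0.00973 for ju145. Of the 37 genes it was the 1 with a q-value under 0.05 in either table, beside 3.41% of all features lower and 1.96% higher in ia03, and 7.63% lower and 0.895% higher in ju145. The NAD synthetase gene qns-1 had 42.3 FPKM in ia03, 34.96 in ju145 and 41.7 in wild type. The nicotinamidase gene pnc-1 had 23.6 in ia03, 23.6 in ju145 and 25.3 in wild type. Below the floor of FPKM 1 and so not measured, pnc-2 had 0.486 in ia03, 0.159 in ju145 and 0.427 in wild type.

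Phenylalanine and tyrosine breakdown, the other aromatic amino acid route, had 5 of 5 measured genes above wild type in ia03 (median log2 ratio 0.19). By comparison, 52.5% of all genes were below wild type in ia03. In ju145, 4 of 5 were below (median -0.10), as were 71.7% of all genes. For example, hpd-1, which encodes hydroxyphenylpyruvate dioxygenase, had 306 FPKM in ia03, 257 in ju145 and 275 in wild type. The phenylalanine hydroxylase gene pah-1 had 226 FPKM in ia03, 189 in ju145 and 190.0 in wild type. Measured from the median of all genes, 4 of these 5 were higher in ju145 as well. The list also holds tatn-1, left out of these counts for its failed test status. Its FPKM of 171.5 in ia03 was below the 179 of wild type, and its 182 in ju145 was above.

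Quinone synthesis, which meets the pathway at 3-hydroxyanthranilate through coq-2, had a median log2 ratio of 0.13 in ia03 and -0.04 in ju145 over 8 genes. For coq-2 itself the FPKM was 43.9 in ia03, 40.1 in ju145 and 44.8 in wild type. Genes for the gut granules, where anthranilate products are stored, had a median log2 ratio of 0.24 in ia03, against -0.15 in ju145, over 9 genes. The most abundant on average, glo-2, had 21.6 FPKM in ia03, 33.8 in ju145 and 33.2 in wild type. In ia03 it was the lowest of the list, with a log2 ratio of -0.60, where 2 genes were below wild type and 7 above.

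**Figure D4:**
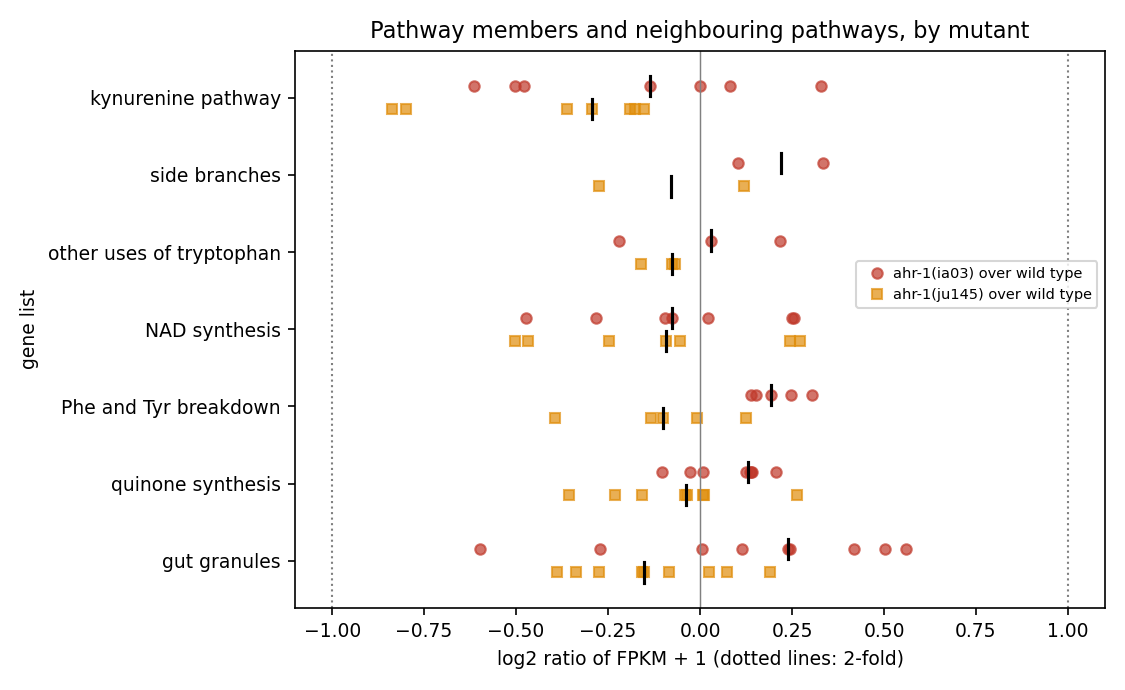
Log2 ratio of FPKM + 1 for the 7 kynurenine pathway genes and for 6 lists of neighbouring pathways, with 1 point per gene, circles for ahr-1(ia03) over wild type and squares for ahr-1(ju145) over wild type; short black lines are medians, the grey line is 0 and dotted lines mark 2-fold. No point passes 2-fold, and the kynurenine pathway holds the lowest point of each mutant, afmd-1 at -0.61 in ia03 and -0.84 in ju145. In ia03 the gut granule gene glo-2 is almost as low, at -0.60.

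Genes with the most similar pattern over the 3 libraries were looked up for each pathway gene, by the Euclidean distance between log2(FPKM + 1) values centred on each gene's own mean, among 9780 coding genes with an FPKM of at least 5 in all libraries (9781 for nkat-1, which is not among them). With 3 points per gene, many genes lay close. Within a distance of 0.1 there were 1367 genes for tdo-2, 1381 for kynu-1 and 1109 for haao-1, which are 14.0%, 14.1% and 11.3% of the genes searched. Fewer were as near to the other members, with 348 for kmo-1, 134 for afmd-1, 97 for nkat-1 and 96 for kmo-2. The nearest gene was T23G11.7 for tdo-2, anmt-3 for kynu-1, ppk-1 for haao-1 and col-79 for kmo-1. For afmd-1 the nearest was T02B11.9, with an FPKM of 28.3 in ia03, 24.2 in ju145 and 43.6 in wild type, at a distance of 0.009. For kmo-2 it was Y43C5A.4, with 14.9 in ia03, 11.8 in ju145 and 21.5 in wild type, and for nkat-1 it was nsph-4.2, with 63.8, 80.0 and 90.3. The pseudocount shrinks the ratios of nkat-1 far more than those of the genes searched. So its likeness to nsph-4.2, and its count of 97, hold only on the log2(FPKM + 1) scale. In FPKM, nkat-1 was at 49.4% of wild type in ia03, a larger drop than that of nsph-4.2. The pseudocount also shrinks the ratios of afmd-1 and kmo-2, though less than those of nkat-1. Their distances and counts likewise hold for the log2(FPKM + 1) scale.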

How the data were processed

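Whole L4 animals of 3 strains gave 1 library each. The submitters' processing notes name TopHat (1.3.1) and Bowtie2 (2.0.2), Cufflinks (1.3.0) and Cuffdiff, SAMtools (0.1.16) and FastQC, without saying what each did. The authors deposited 1 table per mutant with FPKM in that mutant and in wild type, and a p-value and a q-value for each feature. Both tables gave the same wild type FPKM for each of the 45343 features. FPKM is relative to the mapped fragments of a library, so a few abundant RNAs lower all other values.

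The log2 ratio of FPKM + 1 was taken where the deposited status was OK and either library compared reached FPKM 1, and 2-fold was the size limit. With 1 library per strain there was no test. The size of 1 fragment was read, after the values were seen, from low FPKM values of genes with 1 annotated transcript of over 600 nt, shortened by 240 nt (the value that gave the sharpest steps). Fragment intervals cover counting error only. Names came from the files and RefSeq, exons from Ensembl release 115. Of the listed genes 1, wars-2, was not matched. The members, lists and tests were chosen with earlier results of these data known. Named were all members, the up to 4 most abundant genes of each list (fewer are given here), any past 2-fold, and the 3 nearest in pattern, of which the nearest is given. The marker genes col-19, dpy-7, act-5 and asp-1, and the listed gene pnc-2, were named after their values were seen. The alternatives were no floor or one of FPKM 5, pseudocounts of 0.1 and 5, every status, median-ratio and upper-quartile rescaling, and limits of 1.5-fold and 4-fold. No pseudocount and leaving out nkat-1 were added after the values were seen. Python 3.11.15, numpy 2.4.6, pandas 2.3.3 and matplotlib 3.10.9 were used.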

Additional observations from a re-analysis of the deposited data

Results flagged for a closer look

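The log2 ratios of 2 genes had opposite signs in the mutants, each of which is 1 library, and the difference was not tested. For tdo-2 the log2 ratio over wild type was 0.081 in ia03 and -0.19 in ju145. For kmo-1 it was 0.33 in ia03 and -0.15 in ju145. After rescaling by the median ratio the ju145 values of tdo-2 and kmo-1 were 0.01 and 0.04, so the opposite signs were not seen on that scale.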

How the results depend on the processing

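The median log2 ratio of the 7 genes kept its sign in each of the 3 comparisons under every alternative run. Rescaling brought it nearer to 0 for ju145 over wild type, at -0.091 by the median ratio and -0.064 by the upper quartile, and for ia03 over ju145, at 0.086 and 0.11. The count of genes past the size limit was 0 in every comparison and direction, except that at 1.5-fold 1 gene was lower in ia03 (afmd-1) and 2 were lower in ju145 (afmd-1 and kmo-2), and without a pseudocount 1 was lower in ia03 (nkat-1). Signs changed in 6 of 225 single-gene alternatives, all by rescaling: tdo-2 and kmo-1 in ju145, and kynu-1 in ia03, whose log2 ratio was -0.001 as deposited and 0.02 or 0.07 rescaled. No paired analysis was possible because each strain gave 1 library, and for the same reason none could be left out. Depth limits nkat-1 most.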
